A study of Homo sapiens with 10 samples.

Results

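The 112 protein-coding zinc finger genes on the distal long arm of human chromosome 19 were described by how much of each gene lay inside regions called for H3K9me3, the trimethylation of histone H3 lysine 9, after knockdown of ERH. They were chosen by symbol and position, as genes named ZNF, ZFP, ZSCAN or ZKSCAN plus a number whose GRCh38 gene start is at or above 46 Mb, and make up 112 of 566 genes so named and of 20037 protein-coding genes in all. Of the 112 symbols, 104 begin with ZNF, 7 with ZSCAN and 1 with ZFP. The rule uses no measured value, but the genes were chosen with earlier results of these data known.

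The study used BJ cells, a line of human foreskin fibroblasts, and CUT&RUN, in which an antibody directs a protein A/G-micrococcal nuclease fusion to cut out the DNA around its target for sequencing. H3K9me3 was profiled in 3 samples with ERH siRNA (siERH) and 3 with non-targeting siRNA (siControl). SOX2 was profiled in 2 siERH and 2 siControl samples infected 48 hours earlier with Sendai virus for reprogramming with OCT4, SOX2, KLF4 and c-MYC. ERH was knocked down with 5 nM siRNA in 2 rounds 3 days apart, and the H3K9me3 samples received no reprogramming virus. All groups come from the BJ line, so no second cell source is represented.

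All values below were taken from the siERH group's H3K9me3 regions, deposited as 1 merged list over its 3 samples. The siControl and SOX2 values were not analysed here, so nothing below says whether ERH knockdown changed a gene. The list holds 10536 regions and no read counts, its sequencing depth is unknown, and no value has a spread between replicates. It holds no expression values against which the fibroblast label could be checked.

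C2H2 zinc finger genes form the largest family of human transcription factors, and many stand in tandem clusters on chromosome 19. In a typical member a short promoter is followed by small exons, some of which encode a KRAB or SCAN domain, and by a long last exon that encodes the array of zinc fingers. KRAB domains recruit TRIM28, a scaffold protein that brings in the H3K9 methyltransferase SETDB1, and the bodies of zinc finger genes are themselves known to carry H3K9me3 toward their 3′ ends in many cell types.

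Most of the distal 19q genes carried a region, and the covered part lay toward the 3′ end of the gene. A region reached at least 1 bp into 64 of the 112 genes, or 57.1% (Wilson 95% interval 47.9 to 65.9%), and into none of the other 48. The same was true of 10.5% of all protein-coding genes. Neighbouring genes can share a region, so the interval covers counting error only. At least 10% of the gene body was covered in 59 of the 112 genes, against 2.40% of all protein-coding genes, and at least 50% was covered in 10, against 0.424%.

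Promoter sequences are shown because 1 gene differed from the others there. RefSeq promoter windows of GRCh38.p14, running from 250 bases before to 50 after the transcription start, were matched for 96 of the 112 genes. Only that of ZSCAN18, a SCAN domain zinc finger gene, overlapped a region (1 of 96, against 0.151% of all protein-coding promoters), and it lay inside the region over its full 300 bases. It is shown first, beside those of 3 genes chosen after their values were seen. The transcription start in the ZNF880 window was the closest to a region without lying in one, at 728 bp. The annotated ZNF880 gene begins upstream of that window, at chr19:52366858, inside the region chr19:52362450-52369195. ZNF470 had the highest covered share of any of the 112 gene bodies. ZSCAN4, a gene known for its activity in the early embryo, had no region and the fewest CG dinucleotides of the 96. Each is printed 5′ to 3′ along the gene, with every CG in capitals, because CG is where DNA methylation occurs and CG-rich promoters are usually kept free of it.
ZSCAN18, chr19:58118355-58118654, minus strand: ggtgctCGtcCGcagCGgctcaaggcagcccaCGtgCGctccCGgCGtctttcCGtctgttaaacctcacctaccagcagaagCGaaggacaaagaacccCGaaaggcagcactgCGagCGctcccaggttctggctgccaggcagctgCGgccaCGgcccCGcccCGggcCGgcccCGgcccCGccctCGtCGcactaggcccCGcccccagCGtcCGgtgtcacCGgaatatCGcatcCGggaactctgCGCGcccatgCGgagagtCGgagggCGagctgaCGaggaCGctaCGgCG
ZNF880, chr19:52369673-52369972, plus strand: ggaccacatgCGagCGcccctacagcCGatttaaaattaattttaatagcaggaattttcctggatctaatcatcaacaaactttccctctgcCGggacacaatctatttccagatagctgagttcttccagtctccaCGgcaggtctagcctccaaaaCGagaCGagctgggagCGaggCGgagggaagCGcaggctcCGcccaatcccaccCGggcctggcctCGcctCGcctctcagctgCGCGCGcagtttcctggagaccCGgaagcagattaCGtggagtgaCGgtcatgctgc
ZNF470, chr19:56567218-56567517, plus strand: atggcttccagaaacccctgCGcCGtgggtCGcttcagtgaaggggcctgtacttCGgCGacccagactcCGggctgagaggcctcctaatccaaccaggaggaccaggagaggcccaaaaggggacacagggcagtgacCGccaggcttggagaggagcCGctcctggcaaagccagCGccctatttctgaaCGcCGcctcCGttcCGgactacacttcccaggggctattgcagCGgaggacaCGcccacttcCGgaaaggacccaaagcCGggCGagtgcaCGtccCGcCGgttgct
ZSCAN4, chr19:57668685-57668984, plus strand: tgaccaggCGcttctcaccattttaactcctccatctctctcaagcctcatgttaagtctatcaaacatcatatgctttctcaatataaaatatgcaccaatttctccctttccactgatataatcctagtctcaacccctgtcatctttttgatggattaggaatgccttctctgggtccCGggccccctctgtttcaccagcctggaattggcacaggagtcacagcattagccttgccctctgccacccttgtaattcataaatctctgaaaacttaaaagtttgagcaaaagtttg

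The covered ZSCAN18 promoter was rich in CG. It held 36 CG dinucleotides, a number reached or passed by 16.9% of the 15843 protein-coding promoters in the table. Of the 96 promoters of the zinc finger genes, 6.25% held 36 or more. The others among them were not covered: ZNF541 (49), ZNF667 (42), ZSCAN1 (42), ZNF865 (40) and ZNF628 (36). ZNF880 held 20 and ZNF470 held 21, and neither promoter window was covered. ZSCAN4 held 2, and 9.73% of all protein-coding promoters held 2 or fewer. The dinucleotide itself is present in 98.1% of protein-coding promoters, and it reads the same on both strands.

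The 96 promoters were then compared between genes with and without a region. ZNF816 and ZNF816-ZNF321P share the same window, as do ZNF765 and ZNF765-ZNF761, and each shared window was counted for both genes. The median was 25 CG in the 53 genes with a region (range 8 to 42) and 23 in the 43 genes without (range 2 to 49), against 22 over all protein-coding promoters. The GC box GGGCGG, searched on both strands, was present in 37 of 53 and 31 of 43, or 69.8% and 72.1%, against 58.5% of all protein-coding promoters. The CCAAT box, searched as CCAAT on both strands, was present in 19 of 53 and 27 of 43, against 36.4% of all. TATAAA on either strand was present in 0 of 53 and 2 of 43, 1 of them ZSCAN4, against 9.63% of all. These letter matches describe the windows and no difference between the sets was tested. CG dinucleotides lie within each GC box, so the first 2 counts overlap.

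Within the gene bodies, coverage rose from the 5′ to the 3′ end. Strand was known for the 96 genes with a promoter window, and 93 of them are at least 5 kb long. Over these 93 genes each cut into 10 equal bins, the mean covered share was 2.09% in bin 1 at the 5′ end, 15.8% in bin 5 and 34.1% in bin 8. It was 31.9% in bin 9 and 29.1% in bin 10, so the highest value lay inside the 3′ end and not at it. In all, 293.8 kb of the covered bases lay past the gene midpoint and 130.2 kb before it, so that 69.3% lay on the 3′ side. Bases were summed gene by gene, so those shared by overlapping genes were counted for each gene. The 13045 protein-coding genes of that length and known strand that carry no zinc finger symbol, with the zinc finger genes of other regions left out, had 48.3% of their covered bases on the 3′ side and at most 0.62% mean coverage in any bin.

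**Figure D1:**
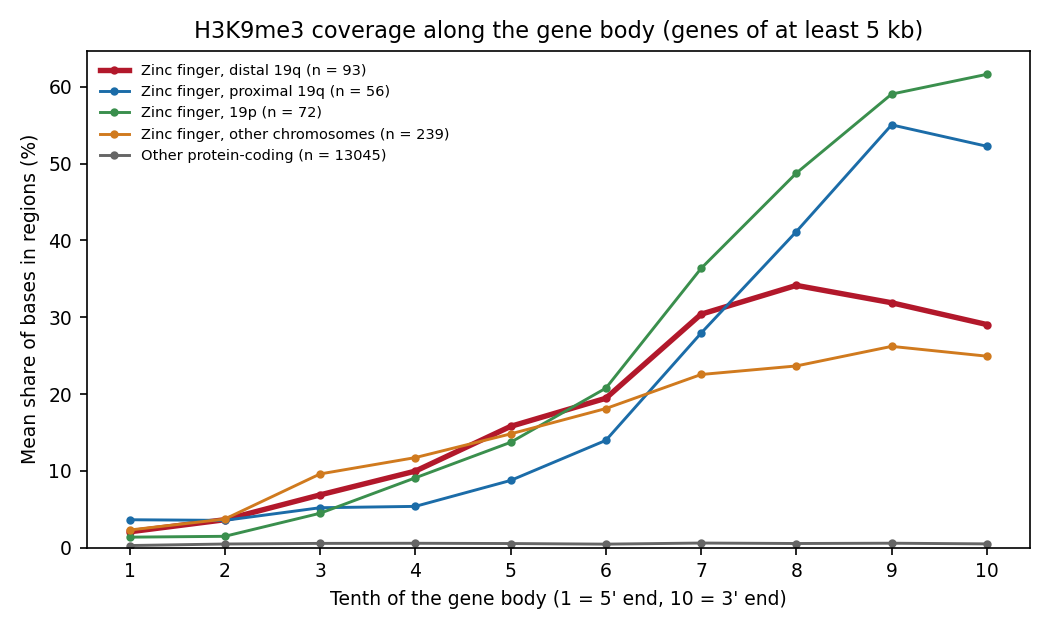
Mean share of bases inside H3K9me3 regions (y axis, %) in each of 10 equal bins of the gene body from the 5′ end (1) to the 3′ end (10), for genes of at least 5 kb with known strand. Distal 19q zinc finger genes (red, n = 93) climb from 2.09% to a peak of 34.1% in bin 8, while protein-coding genes without a zinc finger symbol (grey) stay at or under 0.62%.

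The direction was the same on both strands, where the 3′ end points to opposite sides of the chromosome. Of the 53 genes with a region and a known strand, 44 had the centre of their covered bases past the midpoint, 21 of 25 on the plus strand and 23 of 28 on the minus strand. The median centre lay at 70.2% of the gene length from the 5′ end on the plus strand and at 75.0% on the minus strand. The annotated 3′ end itself lay inside a region in 24 of the 53. The median distance from the 3′ end to a region was 0.80 kb, and from the transcription start it was 8.40 kb. In 41 of the 53 genes a region lay within 5 kb of the 3′ end, and in 17 within 5 kb of the start. The nearest region could lie on a neighbouring gene, as at the start of ZNF577, where it lay on ZNF649.

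The 9 genes whose covered bases centred before the midpoint were named after their values were seen. ZSCAN5A, the longest of the 112 at 147 kb, lay farthest to the 5′ side, with its centre at 17.9% of the gene length and 2.48% covered. ZNF577 followed at 28.7%, ZNF578 at 29.9% and the read-through gene ZNF816-ZNF321P at 34.8%. ZSCAN18 was at 38.8%, where its covered start contributes. The other 4 were ZNF324B at 39.7%, ZNF470-DT at 40.8%, ZNF765 at 45.4% and ZNF880 at 47.1%. ZNF470-DT overlaps the start of ZNF470 on the opposite strand. It was included by its symbol alone, and whether it encodes zinc fingers was not checked. ZNF324B shares its only region with ZNF132, a gene of the opposite strand inside it, whose own centre was at 76.4%. In 12 of the 96 genes the transcription start of the promoter table lies over 1 kb inside the annotated gene, so the 5′ end of those gene bodies belongs to other transcripts.

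**Figure D2:**
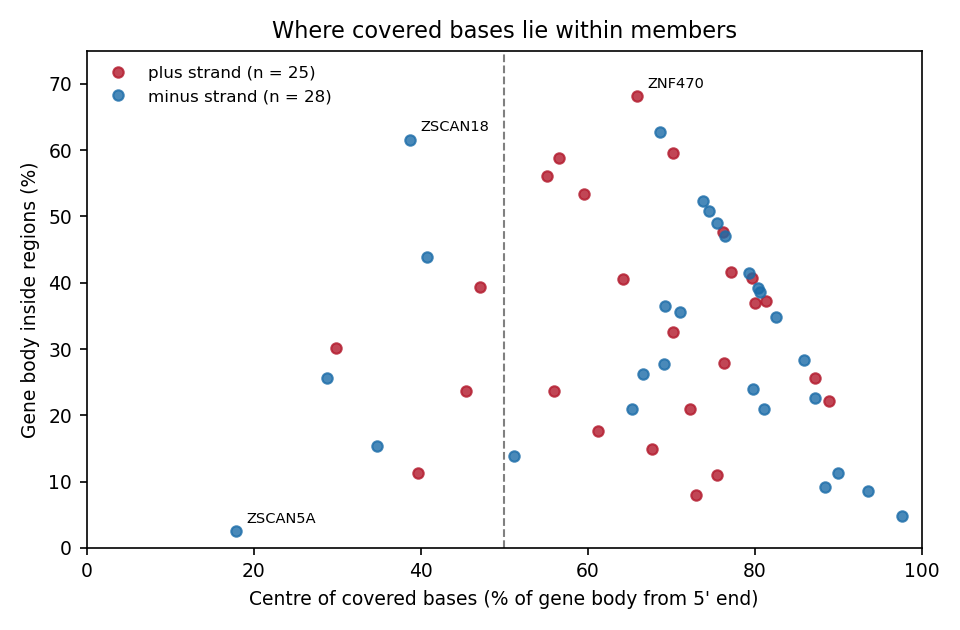
Centre of the covered bases as a percentage of the gene body from the 5′ end (x axis) against the covered share of the gene body (y axis, %) for the 53 genes with a region and known strand, plus strand in red and minus strand in blue. Of the points, 44 lie right of the dashed midpoint, on both strands.

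The 10 most covered genes had between 50.9% and 68.1% of their length inside regions. ZNF470 was covered over 68.1% of its 15427 bp by a region at chr19:56572384-56589572 that ran past its 3′ end. ZNF615 was covered over 62.7% by chr19:51990474-52001923, again past its 3′ end, and ZSCAN18 over 61.6% by 2 regions. ZNF583 followed at 59.5%. ZNF274 was covered over 58.9% by 2 regions. It encodes the zinc finger protein known to bind the 3′ ends of other zinc finger genes and to bring SETDB1 there. The rest of the 10 highest, among genes of at least 5 kb, were ZNF134 at 56.1%, ZNF551 at 53.4%, ZNF471 at 52.4%, ZNF329 at 52.3% and ZNF416 at 50.9%. These 10 are also all the genes with at least 50% covered.

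Below them, 39 genes were covered over 20 to 50% and 15 over less than 20% of their length. The median over the 64 genes with a region was 27.8% (quartiles 20.9 and 41.4%), and over all 112 genes it was 11.3% (95% binomial interval 0 to 21.4%). The latter fell to 5.01% with the regions from the list's median score up, and was 0% without the regions that overlap 2 of the genes. A single region served 48 of the 64 genes, 2 regions served 14 and 3 regions served ZNF550 and the read-through gene ZNF765-ZNF761. In bases, the smallest overlaps were 1901 bp in ZNF114, 2325 bp in ZNF175 and 2698 bp in ZNF211, so no overlap rested on a few bases. On the other side of the threshold, the genes without a region that came closest to one were ZNF530 at 4356 bp, ZNF614 at 4428 bp and ZNF582 at 4519 bp.

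The 112 genes were unevenly marked along the arm. Taking a gap of at least 500 kb between neighbours as a break, a rule set after the data were seen, 109 of them fall into 3 stretches and 3 stand alone. ZNF541, the lone gene nearest the centromere, had no region, and its nearest was 12.4 kb away. The other lone genes both carried one. ZNF114 was covered over 10.8% and ZNF473, known for its part in histone pre-mRNA processing, over 19.01%.

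The first stretch, from ZNF175 to ZNF331 (chr19:51571283-53580269), was the most evenly marked. Of its 41 genes, 36 carried a region, or 87.8% (Wilson 95% interval 74.5 to 94.7%), and regions covered 17.0% of its 2009 kb. The median covered share over its genes was 24.2%. The 5 exceptions were ZNF614, ZNF766, ZNF701, ZNF888 and ZNF415. The longest unbroken series of marked neighbours, 10 genes from ZNF347 to ZNF331, closes this stretch.

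The second stretch, from ZNF628 to ZNF835 (chr19:55476617-56671757), divided into a bare and a marked part. Here 8 of 21 genes carried a region, or 38.1% (Wilson 95% interval 20.8 to 59.1%). The first 11 genes, ZNF628, ZNF579, ZNF524, ZNF865, ZNF784, ZNF581, ZNF580, ZNF787, ZNF444, ZSCAN5B and ZSCAN5C, formed the longest series without a region among the 112. Each lay at least 130.6 kb from the nearest region, and ZNF580 lay 696.6 kb away. Apart from these 11, only ZNF805 of the third stretch, at 113.3 kb, was over 100 kb from a region. In the marked part, the 7 genes with at least 20% covered ran from ZNF583 to ZNF835, with ZNF71 between them bare at 5.73 kb from a region.

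The third stretch, from ZNF264 to ZNF446 (chr19:57191500-58489533), held several series of marked and of bare genes. Here 18 of 47 genes carried a region, or 38.3% (Wilson 95% interval 25.8 to 52.6%). Its first gene, ZNF264, was bare and 74.3 kb from a region, and its last, ZNF446, was bare at 40.1 kb. A series of 7 bare genes ran from ZNF154 to ZNF587. Marked genes of this stretch were covered over a median of 43.9% of their length, against 25.7% in the first stretch and 40.2% in the second. Over all its genes, marked and bare, the median length was 13.4 kb, against 26.5 kb in the first stretch and 11.6 kb in the second. The regions on zinc finger genes had median lengths of 5.88 kb in the third stretch, 6.10 kb in the first and 4.93 kb in the second. Whether gene length plays a part in the covered shares was not tested.

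**Figure D3:**
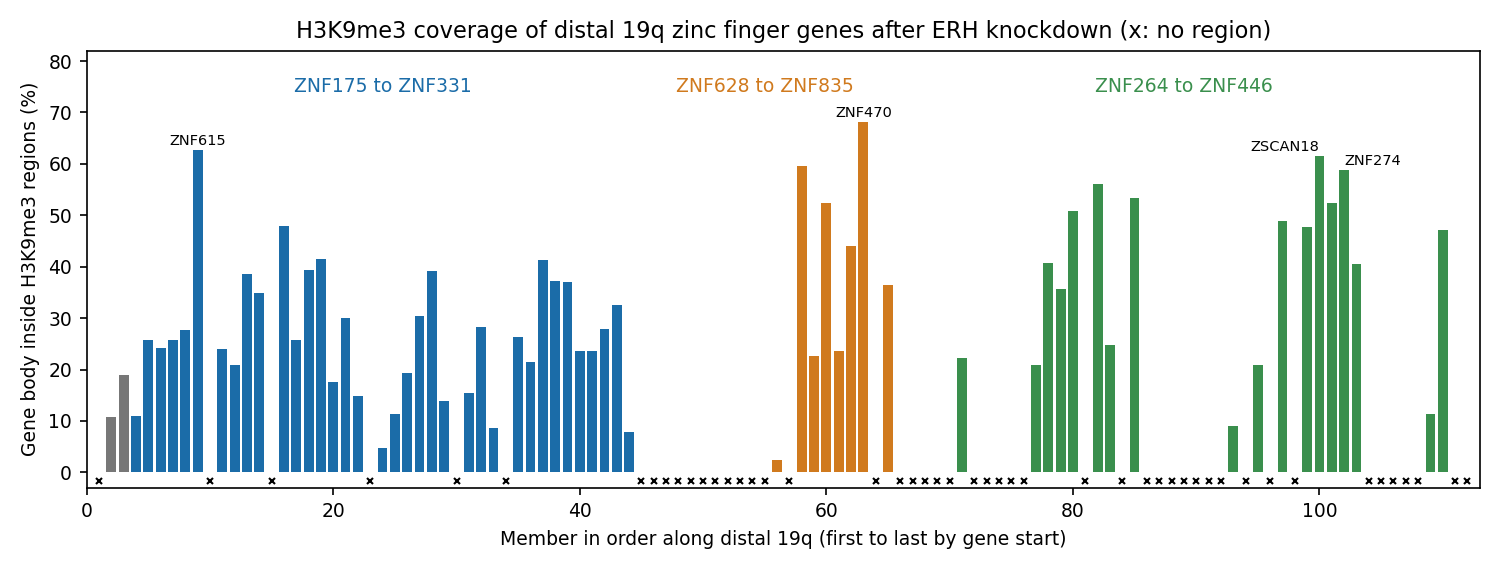
Share of the gene body inside H3K9me3 regions (y axis, %) for the 112 genes in order of their start (x axis), coloured by stretch, with lone genes in grey and a cross under each gene without a region. The first stretch (blue) is marked in 36 of 41 genes, the second (orange) opens with 11 bare genes, and the third (green) holds several series of each kind.

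Longer genes carried a region more often. The 64 marked genes had a median length of 23.3 kb (7.34 to 147 kb) and the 48 bare genes 12.9 kb (2.47 to 52.6 kb). By length class, 4 of 19 genes under 10 kb were marked, 19 of 40 from 10 to 20 kb, 31 of 42 from 20 to 40 kb and 10 of 11 of at least 40 kb. Over all protein-coding genes the shares in the same classes were 0.76%, 3.69%, 6.95% and 22.7%, so length went with overlap there too, at lower levels. The part of length in the differences between stretches was not tested. The 5 longest bare genes were ZNF541 (52620 bp), ZNF787 (33930 bp), ZNF264 (31347 bp), ZNF701 (29863 bp) and ZNF71 (29185 bp).

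The SCAN domain genes, named for a domain through which such proteins pair, were marked in 2 of 7 cases. These were ZSCAN18 and ZSCAN5A, and ZSCAN1, ZSCAN4, ZSCAN5B, ZSCAN5C and ZSCAN22 were bare. Of the 104 genes with a ZNF symbol 61 were marked, and the 1 ZFP gene, ZFP28, was covered over 23.7%. The symbol does not show every SCAN or KRAB domain, and no difference between these names was tested.

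From the first to the last of the 112 genes, regions covered 6.37% of 10.97 Mb. The zinc finger gene bodies took up 2562 kb of that span and were covered over 18.3%, and they held 67.0% of all covered bases. The bodies of the other 280 protein-coding genes, where no zinc finger gene overlapped them, took up 4296 kb and were covered over 1.26%. The space between protein-coding genes was covered over 4.29%. A region was found on 8 of those 280 genes (2.86%, Wilson 95% interval 1.45 to 5.54%), and their median length of 11.04 kb compares with 19.5 kb for the zinc finger genes.

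The 8 other genes, named after their values were seen, included some beside zinc finger genes. C19orf18, covered over 53.0%, lies in the region that also covers ZNF606. ZIM2, a zinc finger gene without the naming pattern, was covered over 18.9%. PEG3, an imprinted zinc finger gene that overlaps ZIM2, was not covered and lay 6.89 kb from a region, and ZIM3 was bare too. Others were the immune receptor gene NCR1 (32.0%) and the inflammasome family gene NLRP7 (30.0%), which share 1 region, and SYT3, a synaptotagmin gene, at 10.5%. DKKL1 (27.7%), ZSWIM9 (7.84%) and LOC124904792 (75.1%) complete them. Of the 6 zinc finger pseudogenes of the arm past 46 Mb, also looked at after the fact, 3 overlapped a region: ZNF818P over 100% of its length, ZNF542P over 25.8% and ZNF702P over 10.2%. The share over all pseudogenes was not computed, so whether that count is high is unknown.

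Of the 101 regions that end past 46 Mb on chromosome 19, 70 overlapped at least 1 of the zinc finger genes. Of these, 58 lay on a single gene and 12 on a pair. The longest, chr19:58101555-58141348 with 39794 bp, joined ZSCAN18 and ZNF329, and covered the ZSCAN18 promoter and the 3′ end of ZNF329. The next, chr19:56413466-56444595 with 31130 bp, joined ZNF583 and ZNF667, which point toward each other, and covered both 3′ ends. The following ones lay on ZNF606 (23922 bp), ZNF677 (20294 bp) and ZNF578 (19049 bp). Near-identical zinc finger genes share sequence and the handling of reads with several matches is not stated, so the assignment of signal to a single gene is uncertain.

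The 70 regions on the zinc finger genes had a median length of 5883 bp (95% binomial interval 4630 to 6746 bp). The other 31 regions of the distal arm had a median of 4047 bp, the 331 regions elsewhere on chromosome 19 had 4481 bp, and all 10437 other nuclear regions had 3521 bp. At least 10 kb was reached by 15 of the 70, or 21.4%, against 5.18% of all other nuclear regions and 22.7% of those elsewhere on chromosome 19. The intervals cover the sampling of regions within this list only, and no difference was tested.

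Each region carries the authors' score, a whole number with no stated unit. Divided by length, its median was 9.10 per base pair on the 70 regions (95% binomial interval 7.90 to 9.85), with 8.16 on the other distal regions, 8.05 elsewhere on chromosome 19 and 6.96 over all other nuclear regions. By main region, the one sharing most bases with the gene, the densest were on ZNF665 (15.6 per base pair), ZNF473 (14.6) and ZNF578 (14.2). The least dense were on ZNF835 (5.10), ZNF534 (5.67) and ZNF480 (5.83). None of the 70 exceeded 15.6, and the medians in the 3 stretches were 9.16, 9.08 and 8.54.

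**Figure D4:**
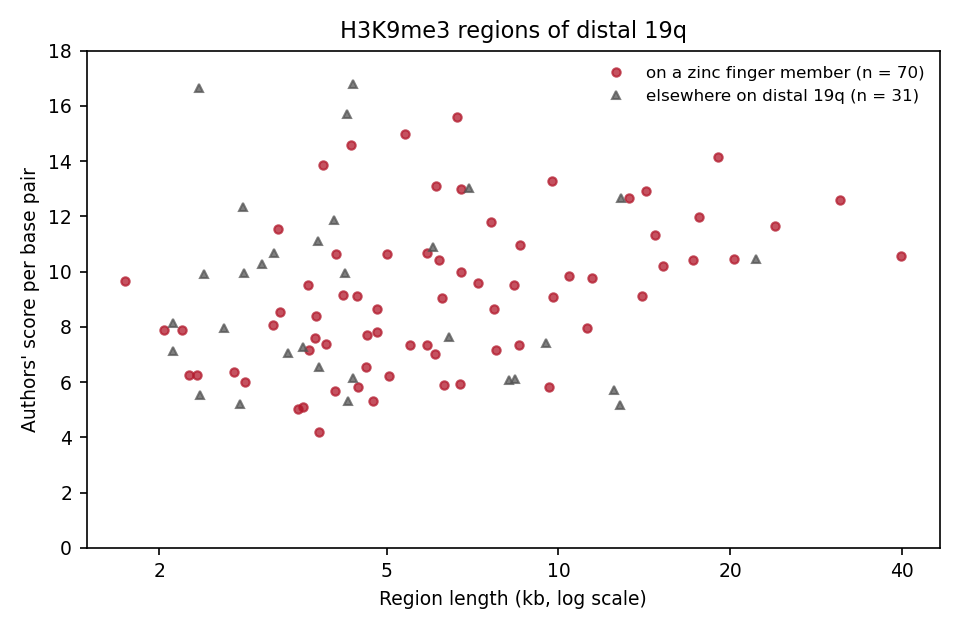
Length (x axis, kb, log scale) and the authors' score per base pair (y axis) of the 101 regions of distal 19q, with regions on zinc finger genes in red (n = 70) and the others in grey (n = 31). Scores run from 4.21 to 15.6 on zinc finger genes and from 5.16 to 16.8 on the others, and the 3 longest regions, up to 39.8 kb, lie on zinc finger genes.

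Zinc finger genes elsewhere, chosen by the same symbols, were set beside the distal 19q genes. Genes with a region made up 90.5% of 84 genes on 19p (Wilson 95% interval 82.3 to 95.1%), 65.2% of 66 on proximal 19q (53.1 to 75.5%) and 41.8% of 304 on the other chromosomes (36.4 to 47.4%). The distal 19q share of 57.1% lay between the last 2. Within distal 19q, the first stretch stood at 87.8%, inside the interval of 19p, and the other stretches at 38.1 and 38.3%, inside the interval of the other chromosomes. Among genes with a region, the median covered share was 27.8% on distal 19q, 24.0% on 19p, 27.5% on proximal 19q and 29.7% elsewhere. No test of these differences was made, since the list is a single pooled sample and genes of a cluster are not independent.

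**Figure D5:**
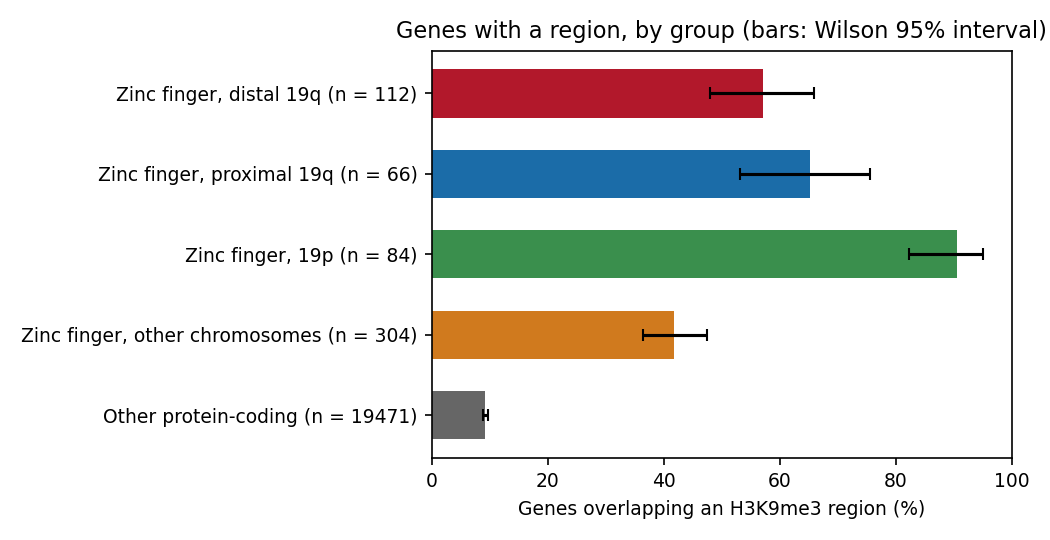
Share of genes that overlap an H3K9me3 region (x axis, %) by group, with Wilson 95% intervals as error bars. Distal 19q zinc finger genes, at 57.1%, lie below those of 19p at 90.5% and above those of the other chromosomes at 41.8%.

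The slope along the gene differed in height. In bin 10, at the 3′ end of the gene body, the mean covered share was 29.1% on distal 19q, 61.6% on 19p, 52.2% on proximal 19q and 24.9% on other chromosomes, while in bin 1 it was 2.09%, 1.39%, 3.65% and 2.32%. In the 5 kb downstream of the gene it was 15.4% on distal 19q, 27.7% on 19p, 39.9% on proximal 19q and 17.0% on other chromosomes. In the 5 kb upstream it was 6.50%, 4.93%, 0.55% and 3.13%. These flanks can reach into a neighbouring gene, as upstream of ZNF577, where the region lies on ZNF649. On distal 19q 69.3% of covered bases were on the 3′ side, beside 70.0% on other chromosomes, 82.6% on 19p and 84.5% on proximal 19q. Promoter windows were covered in 1 of 96 genes on distal 19q, 0 of 73 on 19p, 1 of 59 on proximal 19q and 4 of 249 on other chromosomes. Were the 73 a random sample, a count of 0 would allow an underlying rate of up to about 3 in 73.

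The genes that write, read and erase H3K9me3 were looked at as well, from a list of 23 with all found in the gene table. TRIM28, the KRAB scaffold, lies just beyond the last of the 112 genes and was bare, 107.8 kb from a region. ERH, the siRNA target, was bare on chromosome 14. A region overlapped 4 of the 23, beside 10.5% of all protein-coding genes. Among the 4, KDM4C, KDM4B and ATF7IP are longer than 40 kb. In that length class 22.7% of all protein-coding genes had a region, and the part of length was not tested. SETDB1, the methyltransferase, was covered over 4.85%, its cofactor ATF7IP over 5.75%, and the demethylases KDM4B and KDM4C over 1.66% and 0.62% of their length.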

How the data were processed

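H3K9me3 CUT&RUN was analysed from 1 list of regions that pools 3 siERH samples. Per the submitters' processing notes, Bowtie2 2.3.4.1, SAMtools 1.16.1, deepTools 3.5.0, bedtools 2.27.1, SEACR 1.3, R 3.6.3 and hg38 were used. Roles, thresholds and the handling of reads with several matches are not given in the sources used here. The authors deposited a whole-number score per region, with no unit, used only within the list. Depth is unknown.

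Gene types and positions are those of RefSeq for GRCh38.p14, with 566 zinc finger genes by symbol. Strand came from the promoter table. A gene counted as overlapping from 1 bp. Intervals are 95% Wilson or, for medians, binomial. Genes were named by rule: the most covered, longest bare, nearest the threshold, densest and least dense, those under the longest regions and the outermost. Others are said to be chosen later. Naming by C2H2 motif count was not run. Members and lists were chosen with earlier results of these data known. The interval arithmetic was tested on simulated data. No test between groups could be made. Alternatives covered region length, joining, score, gene length, overlap and gene set. Python 3.11.15, numpy 2.4.6, pandas 2.3.3, scipy 1.17.1 and matplotlib 3.10.9 were used.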

Additional observations from a re-analysis of the deposited data

How the results depend on the processing

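Over 6 results, 33 values were computed under alternatives. The number of marked genes stayed between 51 of 112, without the regions that overlap 2 genes, and 67 of 112, with gene bodies extended by 5 kb. With overlapping genes joined it was 56 of 103 loci. The share over all protein-coding genes was not computed under these settings. The median covered share of 11.3% depended more on the setting. It was 5.01% using the higher-scoring regions (from the list's median score up), with 58 of 112 genes marked. Without regions that overlap 2 genes it was 0%, since only 51 of 112 genes stayed marked. The covered share of the whole span was 6.36% with regions of at least 2 kb, 6.54% with regions within 5 kb joined and 5.97% with the higher-scoring regions. The transcription starts of the promoter windows at a region went from 1 to 2 of 96 within 1 kb on both sides, where ZNF880 joins ZSCAN18. The share of covered bases on the 3′ side was 69.6% with regions of at least 2 kb and with the higher-scoring ones, 69% with joined regions, 73.3% without regions that overlap 2 genes, 80% in genes with 1 region, 67.3% on the plus strand and 71.4% on the minus strand. These 3′ settings, the joined loci, the genes without hyphenated symbols and the regions that overlap 2 genes were chosen after seeing the data. The comparison of coverage with C2H2 motif counts was not run, because no protein table was used here. Depth limits every value in an unknown way. No paired analysis was possible because the list pools the replicates of 1 group.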
